A study of Homo sapiens and Mus musculus with 57 samples.

Results

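PLIN2, ANGPTL4, PDK4, CREB3L3, PNPLA7, CPT1A, FABP1 and PPARG are 8 genes of lipid storage, fasting and fat oxidation that are linked to the peroxisome proliferator-activated receptors (PPARs), and they were followed here in human tumour cells treated with inhibitors of the SUMO E1 enzyme. They are 8 of the 30373 gene rows measured. The set was selected on measured values, because several of its members stood far higher in treated Colo205 cells than in their DMSO controls. The Colo205 contrasts against DMSO are therefore given as a description with no test. RNA was sequenced from 33 human libraries in 11 groups of 3. TAK-981 at 1 uM for 16 h was given to Colo205 and HCT116 (colorectal carcinoma), THP-1 (monocytic leukaemia) and MDA-MB-231 (breast carcinoma), ML-792 at 1 uM for 16 h to Colo205, HCT116 and MDA-MB-231, and DMSO alone for 16 h to all 4 lines. Both compounds block the heterodimer of SAE1 and UBA2, which activates the small protein SUMO before it is joined to its targets. Each line is an established culture and stands for 1 tumour, so a difference between lines is a difference between these cultures.

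PPARs are nuclear receptors that bind fatty acids and their derivatives and, paired with the retinoid X receptor (RXR), switch on genes for taking up, storing and burning fat. PLIN2 coats lipid droplets, and its level follows the amount of stored lipid in many cells. In liver, muscle and intestine ANGPTL4, PDK4, CPT1A, CREB3L3 and FABP1 respond to fasting or to fatty acids, and PPARG, the receptor best known for fat cell formation, is also abundant in colonic epithelium.

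Short windows at the starts of these genes were searched for letters of known motifs. RefSeq windows of GRCh38.p14, each holding the 250 bases before a transcription start, were found for 7 of the 8 members, 12 windows in all, 6 of them for PPARG. PNPLA7 had no entry. Windows of 4 members are shown, those of CREB3L3 and FABP1 because they hold letters of a PPAR site and those of PLIN2 and PDK4 because these genes were among the most raised in Colo205 without such letters. In the sequences, capitals mark AGGTCA, the core hexamer of PPAR sites, or its reverse complement, and in CREB3L3 the whole of a direct repeat of that kind.
CREB3L3, chr19:4153381-4153630, plus strand: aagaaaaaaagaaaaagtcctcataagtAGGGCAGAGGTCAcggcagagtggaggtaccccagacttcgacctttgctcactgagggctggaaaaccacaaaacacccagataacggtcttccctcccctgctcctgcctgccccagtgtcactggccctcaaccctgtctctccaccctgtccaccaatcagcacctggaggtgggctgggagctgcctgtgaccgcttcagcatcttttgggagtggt
FABP1, chr2:88128063-88128312, minus strand: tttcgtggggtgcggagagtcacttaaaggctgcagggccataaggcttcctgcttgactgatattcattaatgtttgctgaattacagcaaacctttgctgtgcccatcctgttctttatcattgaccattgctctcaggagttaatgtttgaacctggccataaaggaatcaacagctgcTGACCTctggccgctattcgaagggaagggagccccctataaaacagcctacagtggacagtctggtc
PLIN2, chr9:19127493-19127742, minus strand: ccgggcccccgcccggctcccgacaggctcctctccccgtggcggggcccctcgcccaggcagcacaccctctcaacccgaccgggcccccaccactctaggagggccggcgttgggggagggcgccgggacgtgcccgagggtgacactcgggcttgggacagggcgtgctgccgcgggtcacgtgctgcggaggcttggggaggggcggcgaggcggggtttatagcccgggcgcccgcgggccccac
PDK4, chr7:95596517-95596766, minus strand: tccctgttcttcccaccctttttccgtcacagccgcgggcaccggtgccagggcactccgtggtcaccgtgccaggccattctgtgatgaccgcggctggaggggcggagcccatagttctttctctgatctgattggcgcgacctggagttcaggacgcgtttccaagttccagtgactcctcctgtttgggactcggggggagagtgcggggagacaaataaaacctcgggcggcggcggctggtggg
Both strands were searched for a direct repeat with a spacer of 1 base, AGGNCANAGGNCA, the kind of element that PPAR and RXR bind together. It occurred in 94 of 35116 windows (0.268%), and of the members in CREB3L3, with its first base at -222 from the start. Its second arm is the AGGTCA at -215, so the motifs overlap. AGGTCA by itself was held by 12.1% of all windows and by windows of CREB3L3, FABP1 and PPARG, in FABP1 as the reverse complement at -68. The hypoxia element core ACGTG was held by 18.5% of windows and by those of PLIN2, ANGPTL4 and PPARG, and the box CCAAT by 32.0% and by those of PDK4, CREB3L3 and PPARG. Neither TGACGT, the core of cyclic AMP response elements (7.1% of windows), nor the FOXO site GTAAACA (2.98%) was found in a member's window. These are matches of letters in short windows and say nothing of binding or of elements elsewhere.

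Libraries held 17336368 to 25807864 estimated counts and 16770 to 18131 detected genes. Some markers set the lines apart and others did not. EPCAM averaged 880.7 CPM (counts scaled to library size within a line) in Colo205 and 276.3 CPM in HCT116 with DMSO, and the myeloid factor gene SPI1 averaged 217.7 CPM in THP-1 and VIM 2637 CPM in MDA-MB-231. The myeloid marker LYZ, however, averaged 1711 CPM in Colo205 and 1211 CPM in THP-1 with DMSO. Of the colon markers, CDX2 averaged 0.698 CPM in Colo205 and CDX1 was at 0 counts in HCT116 with DMSO. The inhibitors block an enzyme and need not change its RNA. In THP-1 UBA2 fell by 0.41 on the log2 scale (SE 0.0851) and SAE1 by 0.68 (SE 0.0685), and in Colo205 they fell by 0.15 and 0.13 with TAK-981 and by 0.16 and 0.19 with ML-792. Neither was called in HCT116 or MDA-MB-231 with either compound. Within its group, HCT116 TAK-981 replicate 1 stood farthest from the other libraries, by a median of 0.145 on the log2 scale over 9936 genes, against 0.0468 for the closest library of all. THP-1 TAK-981 replicate 1 (0.143) and HCT116 DMSO replicate 1 (0.137) stood nearly as far from their groups. THP-1 TAK-981 libraries had 13.6 to 17.0% of their counts in mitochondrially encoded genes, against 7.15 to 7.58% with DMSO. Wells were plated in triplicate and are not said to be separate cultures, so each p-value reflects library-to-library spread alone, and that spread may be technical. In bulk RNA, fewer cells of a kind and less RNA per cell cannot be told apart.

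Untreated levels are compared between genes and lines as FPKM, the authors' values scaled for gene length and library size. With DMSO, Colo205 had the highest levels of PLIN2, CPT1A, FABP1 and PPARG. PLIN2 averaged 102.9 ± 2.88 FPKM there (SD, n = 3), above MDA-MB-231 with 31.5, THP-1 with 18.9 and HCT116 with 13.6 FPKM, and no line overlapped the next. FABP1, which carries fatty acids through the cytosol of hepatocytes and enterocytes, had 43.4 ± 2.97 FPKM in Colo205 and was at 0 counts in all libraries of the other 3 lines. At these depths 0 counts allow up to 0.116 to 0.171 CPM per library. PPARG averaged 40.1 FPKM in Colo205, against 22.0 in MDA-MB-231 and 21.5 in HCT116, which overlapped each other, and 7.49 in THP-1. CPT1A had 41.6 FPKM in Colo205, with HCT116 (19.6) and THP-1 (18.8) overlapping and MDA-MB-231 lowest at 14.5.

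The remaining members were low before treatment in most lines, and Colo205 was not their highest line. ANGPTL4 averaged 3.11 FPKM in HCT116 and 1.25 in MDA-MB-231, but 0.0350 in Colo205 and 0.0301 in THP-1, which overlapped. PDK4 lay between 0.367 FPKM in Colo205 and 0.701 in HCT116, with HCT116 above the other 3 overlapping lines. CREB3L3 averaged 0.394 FPKM in HCT116, above Colo205 (0.132), THP-1 (0.0974) and MDA-MB-231 (0.0958), whose ranges overlapped. PNPLA7 was the one member highest in THP-1, at 3.95 FPKM, against 0.518 in HCT116, 0.171 in Colo205 and 0.131 in MDA-MB-231, the last pair overlapping.

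**Figure D1:**
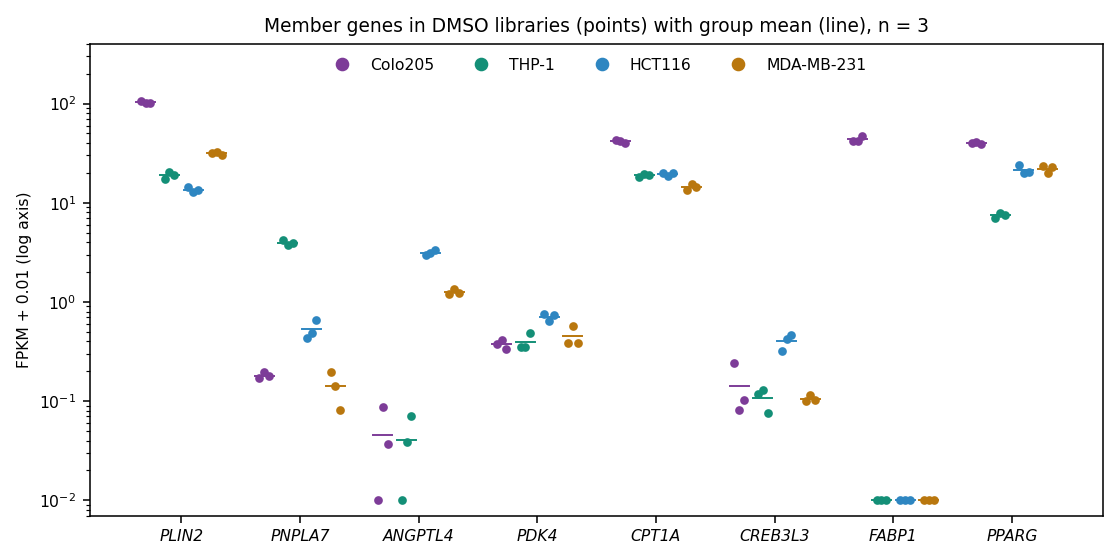
FPKM of the 8 members in the DMSO libraries of each line on a log axis, with 0.01 added so that libraries at 0 can be drawn; points are libraries and lines group means. PLIN2, CPT1A, FABP1 and PPARG are highest in Colo205, and FABP1 is at 0 in the other 3 lines.

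PLIN2, the lipid droplet coat protein, was by FPKM the most abundant member in treated Colo205 cells. In that line it had 1809, 1694 and 1832 CPM with TAK-981 and 1660, 1750 and 1722 CPM with ML-792, against 195.5, 183.6 and 186.6 CPM with DMSO. All treated libraries lay far above all controls, with log2 differences of 3.24 (SE 0.0503) and 3.18 (SE 0.0502) and FPKM values of 905 to 1003 in treated cells. In THP-1 it had 126.8, 111.3 and 124.2 CPM with TAK-981, against 37.6, 44.1 and 39.4 CPM with DMSO. The groups did not overlap, and PLIN2 rose by 1.58 (SE 0.0799; edgeR adjusted p = 7.49e-10). In MDA-MB-231 it had 74.1, 81.6 and 76.1 CPM with TAK-981 and 74.4, 77.6 and 76.9 CPM with ML-792, against 58.6, 60.1 and 55.2 CPM with DMSO. That rise was small and free of overlap, 0.42 (SE 0.0481; edgeR adjusted p = 1.08e-05) and 0.40 (SE 0.0478; edgeR adjusted p = 1.75e-05). In HCT116 it had 19.5, 24.7 and 21.4 CPM with TAK-981 and 25.1, 26.5 and 24.3 CPM with ML-792, against 26.4, 22.8 and 24.7 CPM with DMSO, and the groups overlapped. The HCT116 differences were -0.17 (95% interval -0.37 to 0.03) and 0.04 (-0.16 to 0.23), neither called.

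PNPLA7, a lysophospholipase of the patatin-like family that sits at the endoplasmic reticulum and lipid droplets, stood out in Colo205. It had 17.8, 17.0 and 16.1 CPM there with TAK-981 and 16.4, 17.8 and 18.5 CPM with ML-792, against 0.769, 0.876 and 0.828 CPM with DMSO. The treated libraries of Colo205 were all far above their controls. In THP-1, the line with the most PNPLA7 before treatment, it had 16.6, 19.0 and 18.5 CPM with TAK-981, against 14.0, 12.9 and 12.6 CPM with DMSO, without overlap. The log2 differences in Colo205 were 4.35 (SE 0.128) and 4.40 (SE 0.127), and in THP-1 it rose by 0.45 (SE 0.0958; edgeR adjusted p = 0.000768). No call was made in HCT116, with 2.07, 2.55 and 3.14 CPM with TAK-981 and 2.31, 1.59 and 1.81 CPM with ML-792, against 2.04, 2.33 and 3.11 CPM with DMSO. In MDA-MB-231 it was near the limit of detection, with 0.563, 0.843 and 0.913 CPM with TAK-981, 0.290, 0.312 and 0.278 CPM with ML-792, and 0.928, 0.654 and 0.350 CPM with DMSO. The ML-792 libraries there were the lowest of that line and did not overlap DMSO, but the difference of -1.09 (SE 0.421) was not called (edgeR adjusted p = 0.0755). It was called without DMSO replicate 3 (-1.41; edgeR adjusted p = 0.0259 without that library) and with all lines in one fit, and over the libraries left out in turn its adjusted p ran from 0.0259 to 0.311.

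ANGPTL4, a secreted inhibitor of lipoprotein lipase that is induced by fasting, hypoxia and fatty acids, was nearly absent from untreated Colo205 and THP-1. Colo205 held 31, 25 and 48 counts with TAK-981 and 29, 42 and 29 counts with ML-792, against 0, 3 and 1 counts with DMSO. The summed counts gave 26.7-fold (95% counting interval 10.1 to 99.8) and 26.6-fold (10.1 to 99.7) higher shares in treated cells, where the level was still only 1.37 to 2.34 CPM. THP-1 held 49, 61 and 45 counts with TAK-981, against 0, 1 and 2 counts with DMSO, a ratio of 52.8 (17.7 to 259.0). The fitted rise there was 5.33 (SE 0.478; edgeR adjusted p = 2.19e-07), and it ran from 4.79 without DMSO replicate 4 to 6.17 without DMSO replicate 6. In Colo205 the fitted differences of 4.61 (SE 0.508) and 4.60 (SE 0.51) became 4.10 and 4.09 without DMSO replicate 1 and 5.79 and 5.78 without DMSO replicate 2.

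On the log2 scale, the lines with more ANGPTL4 at the start showed smaller rises. Their treated levels were still the higher ones. With TAK-981 they averaged 5.44 FPKM in HCT116 and 4.12 FPKM in MDA-MB-231, against 0.905 FPKM in Colo205 and 1.535 FPKM in THP-1. HCT116 had 10.7, 9.04 and 10.2 CPM with TAK-981 and 11.2, 10.3 and 10.3 CPM with ML-792, against 5.50, 5.77 and 6.04 CPM with DMSO. MDA-MB-231 had 7.98, 8.25 and 6.95 CPM with TAK-981 and 7.40, 9.32 and 9.19 CPM with ML-792, against 2.27, 2.57 and 2.30 CPM with DMSO. Treated and control libraries did not overlap in either line. ANGPTL4 rose in HCT116 by 0.79 (SE 0.113; edgeR adjusted p = 0.000417) and 0.88 (SE 0.113; edgeR adjusted p = 0.00018). In MDA-MB-231 it rose by 1.70 (SE 0.138; edgeR adjusted p = 2.16e-07) and 1.86 (SE 0.134; edgeR adjusted p = 5.69e-08).

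PDK4, the kinase that shuts pyruvate dehydrogenase and so turns cells from glucose to fat as fuel, was higher with inhibitor in every line. Colo205 had 34.0, 31.9 and 33.2 CPM with TAK-981 and 31.8, 27.9 and 38.1 CPM with ML-792, against 1.38, 1.48 and 1.22 CPM with DMSO. Every treated library lay far above every control, with log2 differences of 4.60 (SE 0.145) and 4.57 (SE 0.146). THP-1 followed with 11.1, 7.85 and 8.17 CPM with TAK-981, against 1.12, 1.14 and 1.53 CPM with DMSO, a rise of 2.84 (SE 0.207; edgeR adjusted p = 2.53e-08). MDA-MB-231 had 5.01, 4.83 and 5.53 CPM with TAK-981 and 6.14, 5.23 and 5.29 CPM with ML-792, against 1.39, 2.10 and 1.40 CPM with DMSO. HCT116 had 4.64, 4.27 and 4.47 CPM with TAK-981 and 5.88, 4.25 and 4.93 CPM with ML-792, against 2.75, 2.13 and 2.60 CPM with DMSO. Groups overlapped in neither line, and PDK4 rose by 1.66 and 1.77 in MDA-MB-231 (SE 0.172 and 0.168; edgeR adjusted p = 3.66e-06 and 1.3e-06) and by 0.84 and 1.01 in HCT116 (SE 0.171 and 0.17; edgeR adjusted p = 0.00539 and 0.0016).

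CPT1A, the carnitine palmitoyltransferase that admits long-chain fatty acids to mitochondria and sets the pace of their oxidation, moved far less. Colo205 had 326.1, 289.9 and 295.1 CPM with TAK-981 and 321.1, 294.5 and 282.0 CPM with ML-792, against 218.9, 207.5 and 202.3 CPM with DMSO. MDA-MB-231 had 112.7, 117.8 and 111.2 CPM with TAK-981 and 108.7, 114.2 and 106.2 CPM with ML-792, against 68.0, 79.5 and 74.6 CPM with DMSO. In both lines all treated libraries lay above the controls, by log2 differences of 0.54 (SE 0.0602) and 0.51 (SE 0.0602) in Colo205. In MDA-MB-231 CPT1A rose by 0.62 (SE 0.0521; edgeR adjusted p = 3.18e-07) and 0.57 (SE 0.052; edgeR adjusted p = 8.47e-07). THP-1 had 120.9, 119.4 and 117.6 CPM with TAK-981, against 102.1, 109.9 and 106.0 CPM with DMSO, without overlap. That rise of 0.17 (SE 0.0622; edgeR adjusted p = 0.0246) was not called by DESeq2 or without the filter on low counts (0.16 and 0.15), nor without DMSO replicate 4, 5 or 6 (0.12, 0.18 and 0.14). HCT116 had 80.8, 103.1 and 104.8 CPM with TAK-981 and 107.3, 114.6 and 115.5 CPM with ML-792, against 101.9, 95.5 and 98.5 CPM with DMSO, with differences of -0.03 (95% interval -0.23 to 0.16) and 0.19 (-0.000585 to 0.38) that were not called. With ML-792 the HCT116 difference was called once TAK-981 replicate 1 was left out of the shared fit (0.20).

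CREB3L3, a transcription factor held in the endoplasmic reticulum membrane of liver and gut cells and activated by fasting, had the largest fitted difference of the set in Colo205. It held 17.6, 17.4 and 16.2 CPM with TAK-981 and 17.3, 14.7 and 17.2 CPM with ML-792, against 0.615, 0.184 and 0.243 CPM with DMSO, which were 12, 4 and 5 counts. The log2 differences were 5.62 (SE 0.209) and 5.56 (SE 0.21), and without DMSO replicate 1, the highest control, they became 6.28 and 6.22. MDA-MB-231 had 2.10, 1.86 and 2.23 CPM with TAK-981 and 2.71, 2.65 and 2.04 CPM with ML-792, against 0.232, 0.280 and 0.233 CPM with DMSO. THP-1 had 1.36, 1.26 and 1.83 CPM with TAK-981, against 0.296, 0.341 and 0.176 CPM with DMSO. Neither line had overlap, although the levels stayed low. CREB3L3 rose by 3.03 (SE 0.287; edgeR adjusted p = 1.33e-06) and 3.29 (SE 0.278; edgeR adjusted p = 3.28e-07) in MDA-MB-231 and by 2.42 (SE 0.361; edgeR adjusted p = 3.68e-05) in THP-1. HCT116, the line with the most CREB3L3 before treatment, had 0.782, 0.658 and 0.771 CPM with TAK-981 and 0.715, 0.563 and 0.586 CPM with ML-792, against 0.815, 1.07 and 1.16 CPM with DMSO. Every treated HCT116 library lay below every control, but the differences of -0.47 (SE 0.28; edgeR adjusted p = 0.281) and -0.71 (SE 0.29; edgeR adjusted p = 0.136) were not called.

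FABP1 could be followed in Colo205 alone. It had 28.5, 24.6 and 29.2 CPM with TAK-981 and 24.8, 25.9 and 31.4 CPM with ML-792, against 19.1, 18.6 and 20.4 CPM with DMSO. All treated libraries were above the controls, by 0.51 (SE 0.0939) and 0.50 (SE 0.0943) on the log2 scale.

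PPARG, the receptor itself, was lower with inhibitor in all 4 lines. Colo205 had 37.5, 34.8 and 37.8 CPM with TAK-981 and 42.2, 38.4 and 41.6 CPM with ML-792, against 69.4, 65.3 and 66.7 CPM with DMSO, log2 differences of -0.87 (SE 0.0571) and -0.72 (SE 0.0568). HCT116 had 26.2, 24.5 and 24.7 CPM with TAK-981 and 24.9, 26.6 and 25.9 CPM with ML-792, against 40.0, 34.2 and 34.7 CPM with DMSO. The groups were separate in both colorectal lines, and in HCT116 PPARG fell by 0.53 (SE 0.0786; edgeR adjusted p = 0.000526) and by 0.49 (SE 0.0787; edgeR adjusted p = 0.00103). THP-1 had 11.9, 8.64 and 10.7 CPM with TAK-981, against 13.7, 15.2 and 14.5 CPM with DMSO, and PPARG fell by 0.48 (SE 0.119; edgeR adjusted p = 0.00261). On the FPKM scale of the authors the THP-1 groups overlapped, with 7.14, 5.10 and 6.22 in TAK-981 libraries, against 7.57 and 7.89 in DMSO replicates 6 and 5 and a value just under the highest TAK-981 one in DMSO replicate 4. MDA-MB-231 had 34.0, 30.9 and 31.5 CPM with TAK-981 and 32.9, 30.6 and 35.4 CPM with ML-792, against 40.9, 35.3 and 41.0 CPM with DMSO, where 1 ML-792 library reached into the control range. PPARG fell there by 0.29 with TAK-981 (SE 0.0693; edgeR adjusted p = 0.00754) and by 0.25 with ML-792 (SE 0.0684; edgeR adjusted p = 0.0148). The ML-792 call was lost without DMSO replicate 3, ML-792 replicate 1 or ML-792 replicate 2, at -0.21, -0.25 and -0.20 (edgeR adjusted p from 0.00265 to 0.0845 over the libraries left out in turn).

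**Figure D2:**
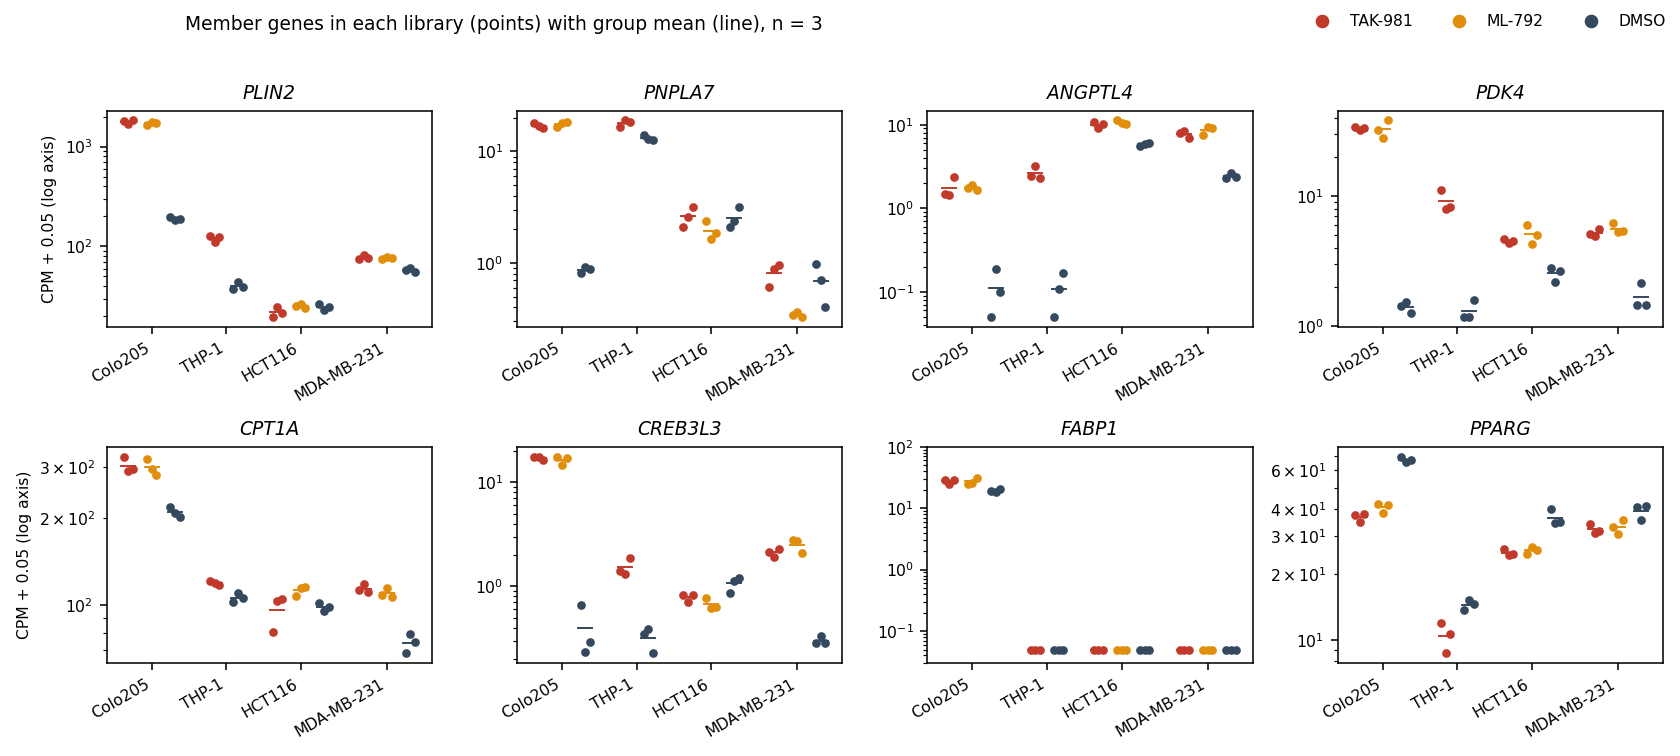
CPM of each member in every library on a log axis, with 0.05 added so that libraries at 0 can be drawn; points are libraries, lines group means, and in each line TAK-981 and ML-792 stand left of DMSO. PLIN2, PNPLA7, ANGPTL4, PDK4 and CREB3L3 of treated Colo205 cells lie far above their controls, and PPARG lies below them.

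Counted over the members, the 3 lines other than Colo205 differed. The members were chosen with earlier results of these data known, so these counts are no independent check. In THP-1, 7 of the 8 members were tested, 6 rose and 1 fell, where 35.5% of all 14526 genes tested rose and 33.9% fell. In MDA-MB-231, 5 of 7 rose and 1 fell with each compound, beside 10.6% of 13976 genes that rose and 9.52% that fell with TAK-981, and 11.6% and 11% with ML-792. In HCT116, 2 of 7 rose and 1 fell with each compound, beside 7.66% of 14563 genes that rose and 6.73% that fell with TAK-981, and 5.99% and 5.27% with ML-792. In Colo205, where 17.9% of 14152 genes rose and 18.0% fell with TAK-981 and 20.9% and 20.8% with ML-792, the members' own contrasts chose them and nothing is read from their number. Their median difference there, over all 8 members, was 3.79 with each compound, a height set by the same choice, so nothing is read from it. Over the 7 members tested in each other line, without FABP1, the median was 1.58 in THP-1. In MDA-MB-231 the median was 0.62 (TAK-981) or 0.57 (ML-792), whereas in HCT116 it was -0.03 or 0.04. Over all genes tested the medians were near 0 in each of these comparisons, the farthest at 0.03 in THP-1. The members rose in THP-1 in libraries with the raised mitochondrial share given above, in which all 13 mitochondrially encoded genes rose. The part of that share in these results was not tested. A fit without those genes, which alters the scaling alone, called PLIN2, ANGPTL4, PDK4, CREB3L3, PNPLA7 and CPT1A higher and PPARG lower. Myeloid markers summed to 1021 to 1106 CPM in TAK-981 libraries of THP-1, against 1928 to 2051 CPM with DMSO, with 2 of 8 called higher, 4 lower and none at 0. Glucocorticoid-responsive genes, which can share fasting targets such as PDK4, summed to 278.1 to 331.1 CPM with TAK-981, against 175.4 to 193.9 CPM with DMSO, and 5 of 6 tested rose while 1 fell. In Colo205 colon epithelium markers summed to 7827 to 7887 CPM with TAK-981 and 7895 to 8728 CPM with ML-792, against 7240 to 7871 CPM with DMSO. Of these 10 markers, none at 0 in Colo205, 3 rose and 1 fell with TAK-981 and 5 rose and 1 fell with ML-792. KRT20 and CDX2, named after their values were seen, rose most, CDX2 to 3.89 and 3.13 CPM, against 0.698 CPM with DMSO (2.47, SE 0.23, and 2.16, SE 0.237). Hepatocyte markers summed to at most 3.96 CPM with TAK-981 and 3.99 CPM with ML-792 there, against at most 4.82 CPM with DMSO, and adipocyte markers to at most 13.8 and 13.0 CPM, against at most 15.5 CPM with DMSO. The part of these marker changes in the members' results was not tested.

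**Figure D3:**
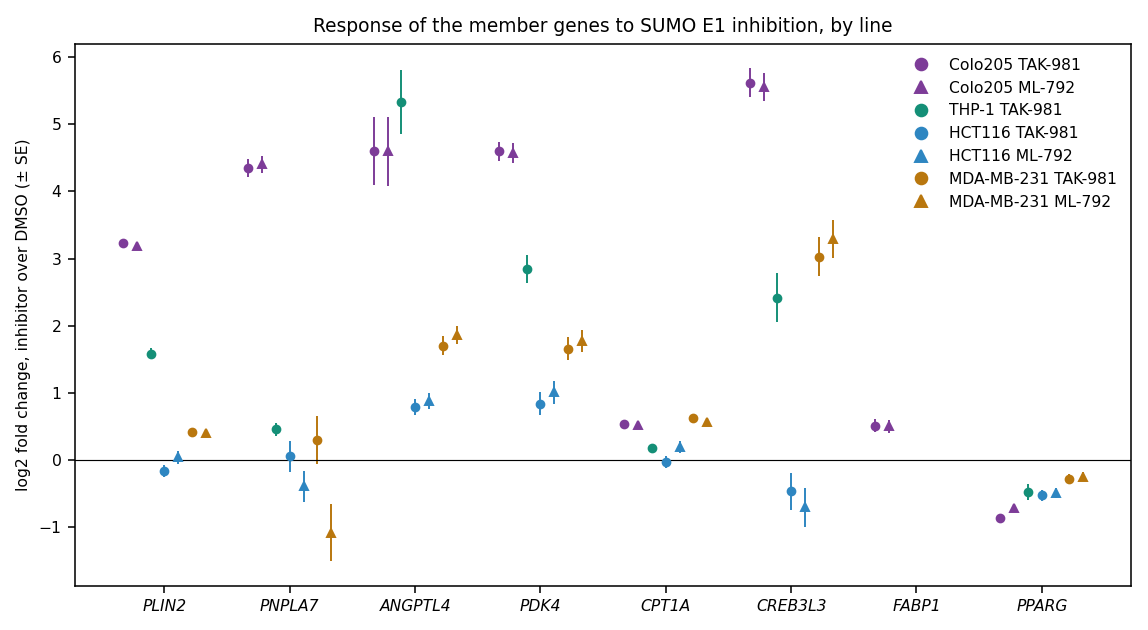
Log2 fold change of each member over DMSO with its standard error, by line (colour) and compound (circles TAK-981, triangles ML-792); FABP1 was measured in Colo205 alone. PPARG lies below 0 in every line, whereas CREB3L3 runs from -0.71 in HCT116 to 5.62 in Colo205.

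The differences between lines were tested for TAK-981 as the interaction of compound and line. Among all 17473 genes tested the median interaction was 0.10 between THP-1 and HCT116, 0.12 between THP-1 and MDA-MB-231 and 0.01 between HCT116 and MDA-MB-231, and 48.1%, 46.7% and 8.17% of genes were called. THP-1 exceeded HCT116 in its responses of PLIN2 (by 1.81, SE 0.104), ANGPTL4 (4.63, SE 0.492), PDK4 (2.08, SE 0.266) and CREB3L3 (2.96, SE 0.411), with edgeR adjusted p of at most 2.37e-07. The ANGPTL4 contrast ran from 4.10 without THP-1 DMSO replicate 4 to 5.50 without DMSO replicate 6. THP-1 also exceeded MDA-MB-231 for PLIN2 (1.25), ANGPTL4 (3.73) and PDK4 (1.27), with ANGPTL4 at 3.20 without THP-1 DMSO replicate 4 and 4.60 without DMSO replicate 6, while CPT1A responded less in THP-1 (-0.37; edgeR adjusted p = 0.00311). For CREB3L3 THP-1 and MDA-MB-231 were not called apart (-0.52, 95% interval -1.52 to 0.47). HCT116 responded less than MDA-MB-231 for CREB3L3 (-3.49, SE 0.387), ANGPTL4 (-0.90, SE 0.224), CPT1A (-0.64, SE 0.103) and PLIN2 (-0.57, SE 0.102), with edgeR adjusted p of at most 0.00856. The same contrast for PDK4 was -0.81 (edgeR adjusted p = 0.0422) and lost its call in 9 of 12 fits with 1 library left out. The CPT1A contrast of THP-1 with HCT116 was 0.27 (SE 0.102; edgeR adjusted p = 0.0259) and was lost without THP-1 DMSO replicate 4, without HCT116 TAK-981 replicate 1 and without the filter on low counts. PPARG and PNPLA7 gave no called interaction between any pair of these lines, with intervals for PPARG of -0.13 to 0.38, -0.36 to 0.14 and -0.46 to -0.00667. For PNPLA7 the contrast of THP-1 with HCT116 was 0.47 (edgeR adjusted p = 0.076). Over the libraries left out in turn its edgeR adjusted p ran from 0.0214 to 0.328, so its call depended on the library left out. Colo205 differed from HCT116 by 6.09 for CREB3L3, 4.30 for PNPLA7, 3.82 for ANGPTL4, 3.76 for PDK4 and 3.40 for PLIN2. In the same order it differed from MDA-MB-231 by 2.60, 4.055, 2.91, 2.94 and 2.82. From THP-1 it differed by 3.21, 3.90, -0.725, 1.76 and 1.66, so ANGPTL4 rose more in THP-1. These differences were not tested because Colo205 chose the members.

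TAK-981 and ML-792 were compared directly in Colo205, HCT116 and MDA-MB-231, at the same dose and time, in 22 tests of members. None was called by edgeR or by DESeq2, where 0.00707%, 0.0481% and 0.0215% of all genes were called by edgeR. At an unadjusted p under 0.05 there were 1, 2 and 1 members. In Colo205 the replicate number pairs the libraries of both compounds, and with it as a block 356 genes were called higher and 268 lower, but no member (1 of 8 at an unadjusted p under 0.05, PPARG, with edgeR adjusted p = 0.0984). In Colo205 the largest was PPARG, lower with TAK-981 than with ML-792 by 0.15 (SE 0.0591; edgeR adjusted p = 0.362), and PLIN2 differed by 0.06 (95% interval -0.04 to 0.15), PDK4 by 0.02 (95% interval -0.18 to 0.22), CREB3L3 by 0.06 (-0.18 to 0.31) and PNPLA7 by -0.05 (-0.23 to 0.12). ANGPTL4 had the widest interval there, -0.605 to 0.62. In HCT116 PLIN2 (-0.20, 95% interval -0.40 to -0.0041) and CPT1A (-0.22, -0.42 to -0.03) were lower with TAK-981, and TAK-981 replicate 1 was the lowest library for each. In MDA-MB-231 PNPLA7 was higher with TAK-981 by 1.38 (95% interval 0.51 to 2.25; edgeR adjusted p = 0.657), at under 1 CPM in every library. For the other members of MDA-MB-231 the differences ran from -0.26 for CREB3L3 to 0.05 for CPT1A.

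Close relatives of the members were followed over 8 families. Several members were chosen for their rise in Colo205, so a smaller change of a relative there is not read as a result. PDK2 rose there by 0.64 with TAK-981 (SE 0.0669; edgeR adjusted p = 6.94e-06) and 0.54 with ML-792 (SE 0.0673; edgeR adjusted p = 2.96e-05), while PDK1 fell by 0.48 and 0.62 and PDK3, the most abundant of them at 304.7 CPM with DMSO, fell by 0.46 and 0.44. CREB3L1 rose by 1.15 and 0.86 to 8.91 and 7.30 CPM, against 4.02 CPM with DMSO. PNPLA8, a mitochondrial and peroxisomal phospholipase, was called higher in all 7 contrasts of the 4 lines, by 0.34 to 0.75. PNPLA2, the lipase that starts triglyceride breakdown, rose in HCT116 by 0.51 and 0.46 and in THP-1 by 0.31. Of the other perilipins PLIN3 was the only one measured in every line, and it rose in Colo205 with ML-792 (0.38, SE 0.0924) but fell in THP-1 (-0.16, SE 0.0625). PPARA and PPARD, the sister receptors of PPARG, were lower in Colo205 with TAK-981 by 0.25 and 0.26 (edgeR adjusted p = 0.018 and 0.0432). With ML-792 PPARD had 15.43 to 18.0 CPM there, against 16.05 to 19.73 CPM with DMSO, and the groups overlapped. PPARA had 27.42 to 31.15 CPM with ML-792, against 34.96 to 36.84 CPM with DMSO, without overlap. In THP-1 PPARD rose by 0.63 (SE 0.0964; edgeR adjusted p = 4.63e-05), opposite to PPARG.

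A wider set of 120 lipid genes in 6 lists, which holds none of the members, showed how far these responses extended. In Colo205, 97 of them were tested, and 20 rose and 23 fell with TAK-981, 25 rose and 20 fell with ML-792, to be read beside the 17.9% to 20.9% of all genes called in 1 direction there. These lists were written with Colo205 results known. Their median differences were -0.02 and 0.00179, as near 0 as those of all genes. Receptors and cofactors of the pathway gave 0 rises and 7 falls among 16 tested with each compound by edgeR (at an unadjusted p under 0.05, 2 rises and 8 falls with TAK-981 and 0 and 7 with ML-792; by DESeq2, 0 rises with each and 6 and 7 falls). Among the falls were NR1H3, the oxysterol receptor LXR alpha (-0.64 and -0.67), and the coactivator PPARGC1A (-0.42 and -0.56). Fatty acid oxidation genes gave 10 rises and 4 falls of 33 with TAK-981 and 14 and 3 with ML-792 (15 and 5 with the replicate number as a block). They were led by ACSL1, which activates fatty acids with coenzyme A, at 290.2, 228.8 and 272.4 CPM with TAK-981 and 302.2, 264.2 and 284.6 CPM with ML-792, against 112.6, 102.2 and 113.5 CPM with DMSO. ACAA2, the thiolase of the last step of beta-oxidation, had 134.7, 129.6 and 137.5 CPM with TAK-981 and 126.6, 132.0 and 130.6 CPM with ML-792, against 65.2, 65.0 and 64.5 CPM with DMSO. Both genes were raised in every treated library, by 1.27 and 1.37 for ACSL1 (SE 0.0807 and 0.0808) and 1.05 and 1.00 for ACAA2 (SE 0.0458 each), whereas ECI2, EHHADH and ACSL4 of the same list fell by 0.17 to 0.33.

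In Colo205 VNN1, a pantetheinase named here after its values were seen, had 8, 9 and 11 counts with TAK-981 and 10, 6 and 7 counts with ML-792, against 0, 0 and 1 with DMSO, ratios of 28.7 (95% counting interval 4.75 to 1180) and 24.5 (3.98 to 1010). Lipid droplet and lipolysis genes gave 0 rises and 3 falls of 14 tested with TAK-981 by edgeR (2 and 3 at an unadjusted p under 0.05, 0 and 3 by DESeq2), and 1 rise and 3 falls with ML-792. MGLL, which releases the last fatty acid of stored fat, fell by 0.48 and 0.46, and DGAT2, which makes triglyceride, fell by 0.39 and 0.33. In fatty acid synthesis 4 of 16 rose with each compound while 6 fell with TAK-981 and 5 with ML-792. The counts of these lists are again to be read beside the 17.9% to 20.9% of all genes called in 1 direction in Colo205. MLXIPL, the glucose-sensing factor ChREBP, fell by 0.88 (SE 0.0615) and 0.69 (SE 0.0611), while the desaturase gene FADS1 rose by 1.80 (SE 0.225) and 1.70 (SE 0.228), to 2.67 and 2.48 CPM, against 0.761 CPM with DMSO.

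**Figure D4:**
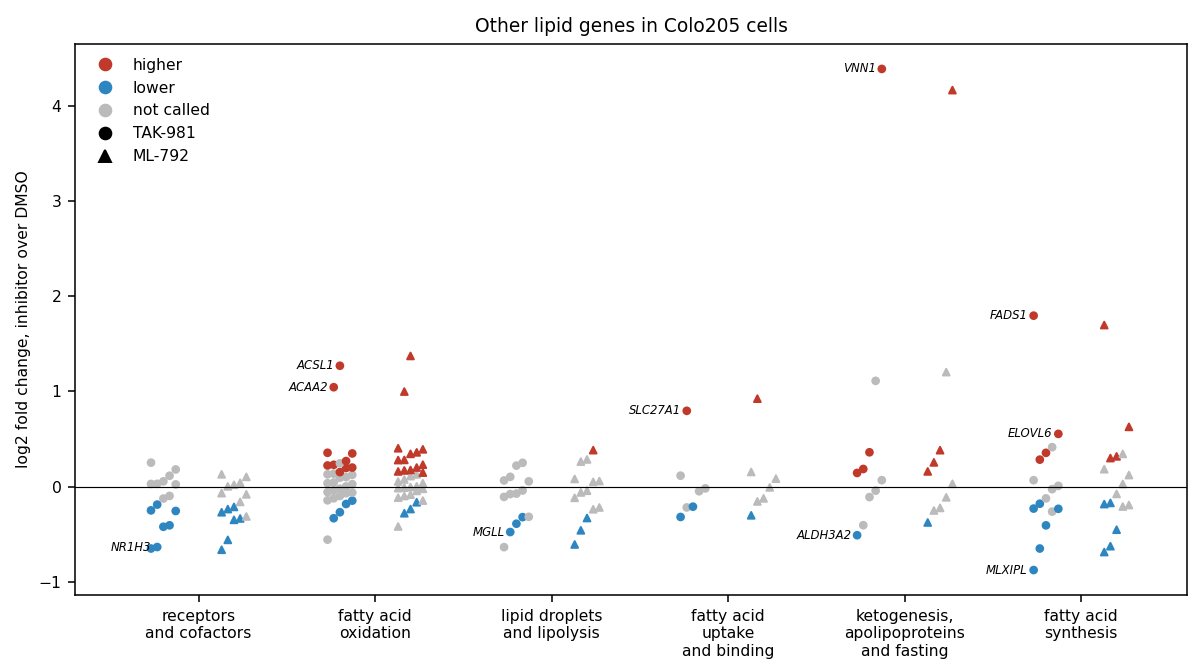
Log2 fold change of inhibitor over DMSO in Colo205 for lipid genes tested, by list; each point is a gene, circles are TAK-981 and triangles ML-792, with genes called higher in red, lower in blue and not called in grey. Most genes lie near 0, and VNN1, a gene of few counts, is the topmost point.

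In THP-1, 94 of the 120 lipid genes were tested, and 28 rose and 39 fell (median -0.12), to be read beside the 35.5% of all genes that rose and 33.9% that fell there. Receptors and cofactors gave 8 rises and 3 falls of 14, among the rises the coactivator NCOA2 at 9.65 CPM with TAK-981, against 2.31 CPM with DMSO (2.06, SE 0.168). Fatty acid synthesis gave 2 rises and 9 falls of 15, led by the desaturase gene SCD at 39.2 CPM, against 144.2 CPM with DMSO (-1.88, SE 0.0821), and oxidation 9 rises and 16 falls of 34. G0S2, which inhibits the lipase PNPLA2, rose by 1.90 (SE 0.105) and the fatty acid receptor CD36 by 1.09 (SE 0.0852), whereas FABP5, a carrier of fatty acids and the most abundant FABP of these cells, fell by 1.90 (SE 0.0901) and UCP2 by 1.86 (SE 0.0831). In MDA-MB-231, 12 of 95 rose and 10 fell with TAK-981 (20 and 13 with the replicate number as a block) and 13 rose and 11 fell with ML-792, where 9.52% to 11.6% of all genes were called in 1 direction. ACAA2 rose there by 0.43 and 0.49 and ACSL1 by 0.31 and 0.25, while G0S2 fell by 0.85 (SE 0.065) and 1.05 (SE 0.0653). In HCT116, 7 of 90 rose and 10 fell with TAK-981 and 5 rose and 8 fell with ML-792, beside 5.27% to 7.66% of all genes in 1 direction, with ACAA2 up by 0.40 and 0.44. ACAA2 was thus called higher with both compounds in Colo205, HCT116 and MDA-MB-231. It did not rise in THP-1, with 36.3, 28.2 and 31.2 CPM with TAK-981, against 37.5, 41.6 and 34.9 CPM with DMSO. No lipid gene of these lists was called between TAK-981 and ML-792 in any line by edgeR or DESeq2, although at an unadjusted p under 0.05 there were 4 higher and 5 lower in Colo205, 3 and 8 in HCT116, and 4 and 2 in MDA-MB-231.

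Across the 11 groups, each gene's mean log2 level (1 CPM added) was set against those of 16515 other genes as a description. The groups share 4 lines, so a correlation can come from differences between lines. It can also come from the treated Colo205 values that chose the members. PLIN2 was most like ACSL1 (Pearson's r = 0.967), SAR1B (0.963) and ACAA2 (0.963). PDK4 and CREB3L3 were each the other's nearest gene (0.947). Both were highest in treated Colo205, at 33.03 and 17.08 CPM with TAK-981, against 1.359 and 0.3476 CPM with DMSO, so their likeness leans on the contrast that chose them. ANGPTL4 was nearest to ANXA1 (0.966), OSGIN1 (0.958) and SOCS5 (0.944), PNPLA7 to CMPK2 (0.969), COLEC11 (0.968) and GALNS (0.955), CPT1A to FDPSP2 (0.979), RASGEF1B (0.97) and HMGCS1 (0.97), and PPARG to SLC30A6 (0.978) and FBXW2 (0.974). TDRG1 (0.902) was also near PDK4, and FABP1, present in 1 line, was nearest to TOX3 and NPSR1-AS1 (1.0 each). The remaining nearest entries carry only clone or locus numbers.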

How the data were processed

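Poly(A) RNA of 33 human libraries was made into TruSeq libraries and sequenced on a NovaSeq instrument, per the labels' protocols. For each gene the authors deposited an estimated count, some of them fractional, and an FPKM value, per the file headers. Which aligner, counter, strand setting, build and annotation were used is not given in the sources used, and overlapping or antisense genes are therefore uncertain. Mouse libraries were not used here, and 0 columns were left unmapped.

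The members, gene lists and tests were chosen with earlier results of these data known. Estimated counts were rounded to whole numbers. They were filtered with filterByExpr (count minimum 10, total minimum 15), scaled by TMM and tested with edgeR 4.0.16 (R 4.3.3) by its quasi-likelihood test, 2-sided, with Benjamini-Hochberg adjustment over all genes tested in a comparison and a call at an adjusted p under 0.05. Each line was fitted alone, with its compounds sharing 1 estimate of the spread, and differences between lines were interaction terms in a joint fit. Only a fit of TAK-981 against DMSO in Colo205 was tried on simulated counts, in which no gene of few counts was changed. The fits with both compounds, the interactions and the replicate block were not simulated. Same-numbered libraries deviated together, every one of 3 correlations being over 0.1 at 10 CPM or more, in Colo205 between compounds (0.36 to 0.424) and for ML-792 against DMSO (0.173 to 0.489), and in MDA-MB-231 for TAK-981 against DMSO (0.208 to 0.421). This comes from the data, and at 1 CPM or more it held for the first alone. CPM values are rounded counts scaled by TMM within a line. Ratios of low counts carry exact 95% intervals that cover counting error only, as does the floor of 3 counts for a library at 0. FPKM values were used as deposited for untreated levels.

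The genes named are all members, their measured relatives, up to 3 called rises and 3 called falls of largest change per lipid list and comparison (at least 1 CPM in the higher group), the 3 genes most like each member, and UBA2 and SAE1. Of the named lipid genes and relatives, those that show a list's range are printed. One gene of the lipid lists enters their counts but is not drawn or reported here. Promoter windows came from RefSeq (GRCh38.p14). Alternatives were DESeq2 (1.42.0), its size factors, no filter, all lines in 1 fit, the replicate number as a block, mitochondrially encoded genes left out, and each library left out in turn.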

Additional observations from a re-analysis of the deposited data

Results flagged for a closer look

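The TAK-981 response differed between lines by the interaction test for 14 pairs of member and line contrast. THP-1 exceeded HCT116 by 1.81 for PLIN2, 4.63 for ANGPTL4, 2.08 for PDK4, 2.96 for CREB3L3 and 0.27 for CPT1A on the log2 scale. THP-1 exceeded MDA-MB-231 by 1.25 for PLIN2, 3.73 for ANGPTL4 and 1.27 for PDK4, and CPT1A differed by -0.37. HCT116 differed from MDA-MB-231 by -0.57 for PLIN2, -0.90 for ANGPTL4, -0.81 for PDK4, -3.49 for CREB3L3 and -0.64 for CPT1A. These contrasts stand beside 48.1%, 46.7% and 8.17% of all genes called. For CREB3L3 all TAK-981 libraries of Colo205 lay above their controls (5.62) and all of HCT116 below theirs (-0.47, not called), a difference between lines that was not tested.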

How the results depend on the processing

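Counts of members called, both directions together, stayed within 1.5 times under every alternative run, while single calls changed as given for CPT1A, PDK4, PPARG and PNPLA7. Pathway counts moved more. In MDA-MB-231 with TAK-981, 12 higher and 10 lower became 20 higher with the replicate block, and 6 and 6 with all lines in 1 fit, where the 13 and 11 of ML-792 became 7 and 7. With 1 library left out, MDA-MB-231 gave 8 to 12 higher and 5 to 12 lower with TAK-981 and 7 to 14 higher with ML-792. HCT116 gave 4 to 8 higher with TAK-981 and 2 to 10 higher and 5 to 11 lower with ML-792, the 10 without TAK-981 replicate 1. The members' median in Colo205, whose height the choice of members set, ran from 3.68 to 3.81 with TAK-981 and from 3.65 to 3.82 with ML-792. It was lowest without DMSO replicate 1. Uncalled differences changed sign when a library was left out. Against DMSO they were PNPLA7 (-0.10 to 0.24) and CPT1A (-0.0998 to 0.0735) with TAK-981 and PLIN2 with ML-792 (-0.0157 to 0.0894) in HCT116, and PNPLA7 with TAK-981 in MDA-MB-231 (-0.0320 to 0.65). Between TAK-981 and ML-792 in Colo205 they were CPT1A (-0.0325 to 0.0759), FABP1 (-0.0528 to 0.11), ANGPTL4 (-0.28 to 0.14), PDK4 (-0.0829 to 0.15) and CREB3L3 (-0.0140 to 0.11), and in MDA-MB-231 PLIN2 (-0.0246 to 0.0471) and PPARG (-0.0911 to 0.0173). Between lines they were PPARG (-0.20 to 0.00982) and PNPLA7 (-0.12 to 0.56) for THP-1 minus MDA-MB-231, and PNPLA7 (-0.59 to 0.0865) for HCT116 minus MDA-MB-231. The cause was not tested. Replicate numbers are shared within Colo205, HCT116 and MDA-MB-231, and in the comparisons other than the 3 named under processing they count as a number alone (above 0.1 in 8, 3 and 7 of 9 pairs of a line at 10 CPM or more). With the replicate block ANGPTL4 between compounds in Colo205 was -0.00479, against 0.00928 without it, and no member was called there, while calls over all genes went to 356 higher and 268 lower, against 1. DESeq2 called 93 and 15 genes between compounds in HCT116, 15 and 11 in Colo205 and 8 and 1 in MDA-MB-231, against 7, 1 and 3 in all by edgeR, and no filter gave 101 and 11, 30 and 19, and 20 and 8. Depth limits most the members with 3 to 43 counts summed over 3 DMSO libraries, which were ANGPTL4 in Colo205 and THP-1, CREB3L3 in Colo205, THP-1 and MDA-MB-231, and PNPLA7 in MDA-MB-231.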

Other observations

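ANGPTL4 is often counted among genes of the hypoxia response. Of 12 other such genes tested in MDA-MB-231 by edgeR, 8 fell and 4 were not called with TAK-981, and 7 fell and 5 were not called with ML-792, where 9.52% and 11% of all genes fell. Their summed level was 4407 to 4441 CPM with TAK-981 and 4469 to 4512 CPM with ML-792, against 5182 to 5278 CPM with DMSO. PDK1, a kinase of the same family as PDK4 that hypoxia is known to raise, fell in that line by 0.79 (SE 0.0652) and by 0.74 (SE 0.0642). With TAK-981 the list summed to 1800 to 1860 CPM in Colo205, against 2011 to 2043 CPM with DMSO. In THP-1 it summed to 938.2 to 1127 CPM, against 1559 to 1680 CPM. HCT116 had 1631 to 1679 CPM with TAK-981 and 1699 to 1770 CPM with ML-792, against 1744 to 1827 CPM with DMSO, which the ML-792 range overlapped. LDHA and PGK1 were the most abundant genes of the list in every group and weigh most in these sums. LDHA averaged 566.6 CPM with TAK-981 and 698.5 CPM with DMSO in Colo205, and 463.5 and 820.9 CPM in THP-1. Within the list VEGFA went up in Colo205 (196.1 to 237.0 CPM) and SLC2A1 in THP-1 (193.6 to 206.1 CPM). The part of hypoxia in the members' results was not tested. ANGPTL2, the one other angiopoietin-like gene tested in MDA-MB-231, rose by 1.03 with TAK-981 and 0.82 with ML-792. In THP-1 the glucocorticoid-responsive genes SGK1 and PER1, named after their values were seen, rose by 2.84 (SE 0.15) and 1.71 (SE 0.125). FKBP5 of the same list went the other way, from 77.07 CPM with DMSO to 54.5 CPM with TAK-981. In Colo205 the list summed to 222.2 to 231.5 CPM with TAK-981 and 201.1 to 234.2 CPM with ML-792, against 217.9 to 224.1 CPM with DMSO. The part of these genes in the members' results was not tested.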
